A study of Mus musculus with 6 samples.

Results

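The 40 interferon-stimulated antiviral genes described here were followed in regulatory T cells that carry a gfp allele of Blimp1 on both copies or on 1 copy. They were chosen by name, as genes known to be induced by interferons, and were looked up by symbol in the platform annotation of an Illumina BeadChip. The choice was made with earlier results of these data known. Of the 40 genes, 36 had a probe among the 17711 genes named on the array, and 29 were detected on at least 3 of 6 arrays and tested, out of 8739 genes tested in all. Each of the 29 was detected on at least 1 array of both genotypes. Regulatory T cells are the Foxp3-expressing CD4 T cells that restrain immune responses. Blimp-1, the product of the gene Prdm1, is a transcriptional repressor known from plasma cells and effector T cells. The first genotype was Blimp1 gfp/gfp, in which, from general knowledge of this allele, neither copy gives functional Blimp-1. The second was Blimp1 +/gfp, which keeps 1 working copy and stood as the control, so the control cells carry the gfp allele too. Each genotype had 3 samples on 1 array each. Both genotypes are labelled as C57/B6 mice and as bone marrow. The labels state no sort or gate, no age of the mice and no number of animals behind a sample. The p-values therefore rest on the variation among the samples given, and that may be technical.

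Interferons are secreted in response to infection and signal through receptors on the cell surface to transcription factors that, together with Irf9, bind an interferon-stimulated response element in the promoters of target genes. The proteins so induced detect viral nucleic acid, degrade or withhold RNA, block translation and trap virus particles. In resting lymphocytes, basal interferon signalling and interferon regulatory factors sustain many of the same genes at a level below that of a response. The DNA motif of Blimp-1 shares its GAAA core with the sites of the interferon regulatory factors.

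The arrays carried 46632 probes, of which 14694 to 16067 were detected per array. The 9 T cell markers and the 8 regulatory T cell markers with a probe were detected on all 6 arrays, which does not measure purity. Foxp3, the lineage factor, differed by -0.28 ± 0.30 on the log2 scale (SE; limma adjusted p = 0.696) and Cd3e, a chain of the T cell receptor complex, by 0.02 ± 0.16 (SE; limma adjusted p = 0.965). Other genes of these marker lists read lower in Blimp1 gfp/gfp: Tnfrsf18, a costimulatory receptor of regulatory T cells, fell by 1.11 ± 0.18 (SE; limma adjusted p = 0.0243), and Ikzf4 (-0.59), Tnfrsf4 (-0.53), Trat1 (-1.13) and Cd2 (-0.63) had groups that did not overlap without passing the threshold (limma adjusted p of 0.135 to 0.169). Prdm1 transcript read 7.14, 7.75 and 7.54 (log2) in Blimp1 gfp/gfp, against 5.76, 5.82 and 5.50 in Blimp1 +/gfp, and was higher in Blimp1 gfp/gfp by 1.79 ± 0.20 (SE; limma adjusted p = 0.00744), a call that ended when both its probes were averaged (0.102). The difference of Prdm1 was 0.78 with no background correction. Whether its probes fall before or after the gfp insertion is stated by no label, and Prdm1 therefore does not check the genotypes. The genotypes also differed in transcripts tied to the sex of the mice. Eif2s3y, a Y-linked gene, was detected on no Blimp1 gfp/gfp array and on 3 of 3 Blimp1 +/gfp arrays, and Xist, the RNA of the inactive X chromosome, read 9.89, 11.37 and 11.02 in Blimp1 gfp/gfp, against 9.69, 9.20 and 5.52 in Blimp1 +/gfp. Blimp1 +/gfp replicates 1 and 2 thus carried Xist together with Eif2s3y, which read 10.49 and 10.53 there, and the reason was not tested. Each genotype also lay on a BeadChip of its own, so genotype, BeadChip and the sex of the source mice cannot be told apart. Blimp1 +/gfp replicate 3 stood apart in markers of other cells: the summed linear level of the 13 dendritic cell markers with a probe was 72308 there, against 15312 and 17705 on the other 2 Blimp1 +/gfp arrays and 12779 to 22227 on the Blimp1 gfp/gfp arrays. The 13 myeloid markers with a probe summed to 16542 on that array, against 4803 and 5986 on the other 2 Blimp1 +/gfp arrays and 4831 to 6034 on the Blimp1 gfp/gfp arrays. Erythroid and megakaryocyte markers summed to 1182, 8045 and 2817 in Blimp1 gfp/gfp, against 243, 486 and 11203 in Blimp1 +/gfp. Some markers of other cells were detected on all 6 arrays. Among these, Cd8b1 had means of 11.54 in Blimp1 gfp/gfp and 11.69 in Blimp1 +/gfp, and Cd79b had 10.46 and 10.20. Other markers of the same lists were less level. Nkg7 (-1.21) and Prf1 (-1.01) of the CD8 and NK cell list had groups that did not overlap. So did Cd79a (1.91) and Xbp1 (-0.66) of the B cell and plasma cell list. None of these passed (limma adjusted p of 0.0762 to 0.147).

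Most of the interferon-stimulated genes tested read lower in Blimp1 gfp/gfp than in Blimp1 +/gfp regulatory T cells, and 4 of them passed the test. Oas1g, an oligoadenylate synthetase, Isg20, an exonuclease, Ifit2, an RNA-binding inhibitor of translation, and Sp100, a nuclear body protein, fell past the threshold of an adjusted p under 0.05 (limma, Benjamini-Hochberg over all 8739 genes), and 0 rose. That is 4 of 29 members lower (13.8%), where 1.69% of all genes tested were called lower, 2.43% were called higher and 4.12% were called in either direction. At an unadjusted p under 0.05 in limma, 16 of 29 members were lower (55.2%, against 7.22% of all genes tested) and 0 were higher, where 11.3% of all genes tested were higher. The 3 values of one genotype lay wholly below those of the other for 16 members lower in Blimp1 gfp/gfp (55.2%, against 10.4% of all genes tested) and for 2 members higher in it, Trim21 and Lgals3bp, where 15.4% of all genes tested were so. A difference below 0 was found for 26 of 29 members, against 45.3% of all genes tested. The members' median log2 difference was -0.53, with a range of -1.51 to 0.38, beside a median of 0.03 over all genes tested. In RNA from bulk cells, less transcript in each cell and fewer cells that express a gene cannot be told apart.

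**Figure D1:**
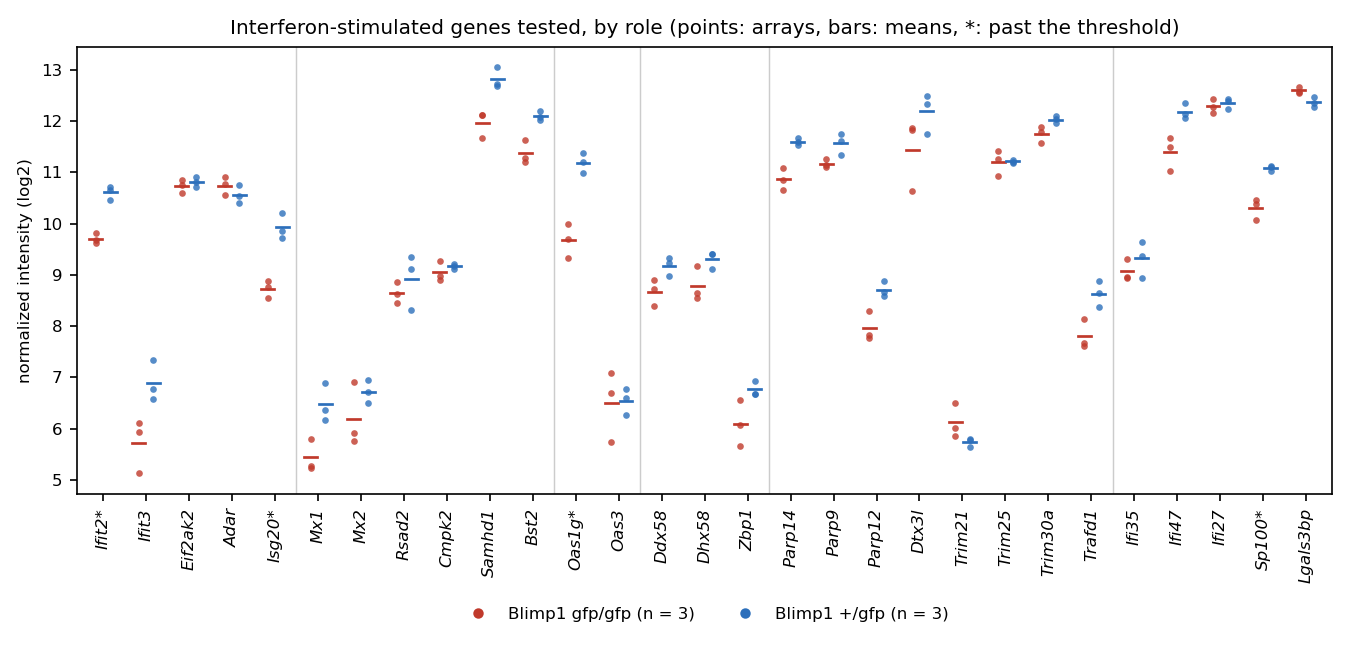
Normalized log2 intensity (y axis) of the 29 interferon-stimulated genes tested (x axis, grouped by role), with a point for each array, red for Blimp1 gfp/gfp on the left and blue for Blimp1 +/gfp on the right of each pair, and a bar for each mean of 3. An asterisk marks the 4 genes past the threshold, and for 16 genes the red points lie wholly below the blue ones. Each gene is to be read against itself, since probes differ in brightness.

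The direction did not rest on the array that stood apart. Without Blimp1 +/gfp replicate 3, 26 of 29 members still lay below 0, the median was -0.52, and 3 members were called (Oas1g, Isg20 and Ifit2). The count of members called did depend on single arrays. Leaving out Blimp1 gfp/gfp replicate 1, 2 or 3 gave 1, 2 or 0 calls, and leaving out Blimp1 +/gfp replicate 1 or 2 gave 0 or 2 calls (limma, 5 arrays). Calls over all genes tested fell in these fits too. The share called lower, 1.69% with every array, was 0.927%, 0.767% or 0.561% without Blimp1 gfp/gfp replicate 1, 2 or 3. It was 0.286%, 0.481% or 1.73% without Blimp1 +/gfp replicate 1, 2 or 3. The lower member counts are therefore not particular to the members. In the 2 fits with 0 members called, the members at an unadjusted p under 0.05 numbered 13 without Blimp1 gfp/gfp replicate 3 and 12 without Blimp1 +/gfp replicate 1. Scaling each array to its median in place of quantile normalization moved the median of all genes to 0.16, and 22 members then lay below 0 and 26 below that median.

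**Figure D2:**
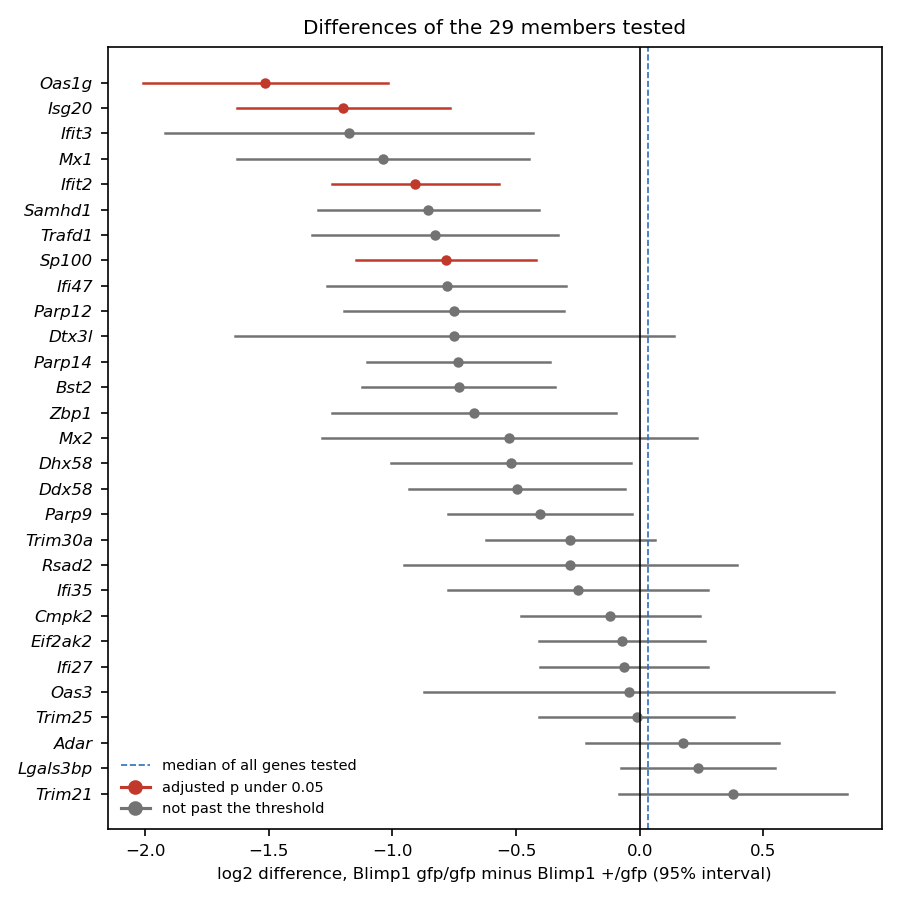
Log2 difference, Blimp1 gfp/gfp minus Blimp1 +/gfp (x axis), of the 29 members tested (y axis, lowest at the top), with 95% intervals from the fit. Red marks the 4 genes past the threshold, the dashed line is the median of all genes tested at 0.03, and 26 points lie left of 0.

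**Figure D3:**
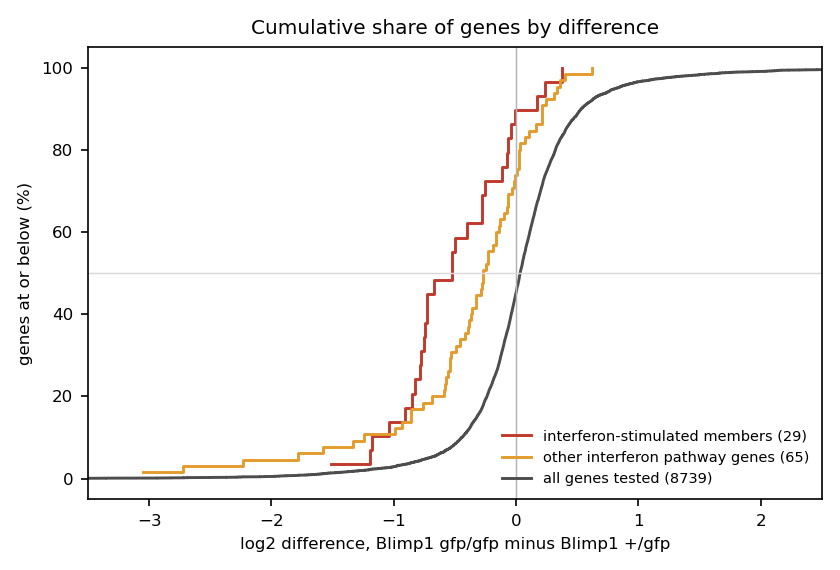
Cumulative share of genes (y axis, percent) at or below a log2 difference, Blimp1 gfp/gfp minus Blimp1 +/gfp (x axis), for the 29 members tested, 65 other interferon pathway genes tested and all 8739 genes tested. The share below 0 was 89.7% for the members and 73.8% for the pathway genes, against 45.3% for all genes.

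The promoters of the 4 genes that fell, and of Ifit3, show the letters searched for the response element and the Blimp-1 motif. Not every promoter shown holds a match. The windows run from 250 bases before to 50 bases after a gene's start in RefSeq, on build GRCm38.p6 and on the strand of the gene, and 30 of the 40 members had at least 1 window. A pair of GAAA separated by 2 bases of any kind, the core of the interferon-stimulated response element, was searched on both strands, and capitals mark each GAAA of a pair (TTTC where it lies on the other strand). Oas1g is at chr5:120887564-120887863 (minus strand), Ifit3 at chr19:34583279-34583578 (plus), Ifit2 at chr19:34550444-34550743 (plus), Isg20 at chr7:78913174-78913473 (plus) and Sp100 at chr1:85649738-85650037 (plus).
Oas1g: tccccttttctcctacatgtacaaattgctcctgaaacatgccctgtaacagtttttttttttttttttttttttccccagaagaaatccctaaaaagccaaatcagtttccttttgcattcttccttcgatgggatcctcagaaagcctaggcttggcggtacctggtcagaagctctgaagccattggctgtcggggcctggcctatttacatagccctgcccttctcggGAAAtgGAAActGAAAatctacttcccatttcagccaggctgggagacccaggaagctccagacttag
Ifit3: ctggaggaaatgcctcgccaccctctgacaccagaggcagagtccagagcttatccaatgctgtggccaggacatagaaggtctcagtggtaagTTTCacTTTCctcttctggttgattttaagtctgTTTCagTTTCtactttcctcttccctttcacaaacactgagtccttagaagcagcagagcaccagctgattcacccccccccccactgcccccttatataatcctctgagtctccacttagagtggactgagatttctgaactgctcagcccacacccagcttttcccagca
Ifit2: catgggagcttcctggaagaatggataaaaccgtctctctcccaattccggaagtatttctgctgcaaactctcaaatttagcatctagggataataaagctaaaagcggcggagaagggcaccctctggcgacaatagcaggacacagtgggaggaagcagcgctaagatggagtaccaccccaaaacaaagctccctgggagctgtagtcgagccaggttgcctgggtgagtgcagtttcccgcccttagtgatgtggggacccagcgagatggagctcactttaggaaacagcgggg
Isg20: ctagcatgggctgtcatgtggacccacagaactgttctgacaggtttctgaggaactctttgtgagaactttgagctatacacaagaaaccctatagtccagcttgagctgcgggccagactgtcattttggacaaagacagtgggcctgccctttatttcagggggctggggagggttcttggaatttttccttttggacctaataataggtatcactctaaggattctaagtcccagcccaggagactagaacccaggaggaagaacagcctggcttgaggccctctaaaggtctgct
Sp100: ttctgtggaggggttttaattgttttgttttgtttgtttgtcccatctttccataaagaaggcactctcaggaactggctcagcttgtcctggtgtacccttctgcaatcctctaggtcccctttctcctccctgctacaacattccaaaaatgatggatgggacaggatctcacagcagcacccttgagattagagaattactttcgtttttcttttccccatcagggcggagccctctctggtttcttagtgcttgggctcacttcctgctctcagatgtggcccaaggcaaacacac

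Oas1g holds 3 GAAA in a row at this spacing, with pairs beginning 18 and 12 bases before its start, and Ifit3 holds pairs beginning 156 and 122 bases before its start. The pair was not in the letters of either window of Ifit2 or Sp100, nor in the 3 windows of Isg20. Over all members it was found in 13 of 30 genes (43.3%), against 3.99% of the 27025 genes with a window and 3.44% of the 32851 windows. The Blimp-1 motif searched, AGNGAAAG on both strands, shares the letters GAAA with the pair and was found in 0 of 38 member windows, against 8.63% of all windows and 16.2% of the 74 windows of the other interferon pathway genes tested. A match is a run of letters and not a measured binding site. Among tested members with a window, holding the pair did not go with a lower difference. The 9 with it had a median log2 difference of -0.28 (8 of 9 below 0). The 13 with a window but no pair had -0.75 (11 of 13 below 0). Dhx58, Ifi27, Mx1, Mx2, Parp9, Parp14 and Zbp1 were tested but had no window, and are in neither group. These medians are descriptions of the members and were not tested.

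Among the RNA-binding effectors, 2 of 5 members tested fell, Isg20 and Ifit2, and the list's median difference was -0.91. Isg20, an exonuclease that degrades single-stranded RNA, read 8.55, 8.88 and 8.77 (log2) in Blimp1 gfp/gfp, against 10.22, 9.72 and 9.86 in Blimp1 +/gfp. Every Blimp1 gfp/gfp value lay below every Blimp1 +/gfp value. The difference was -1.20 ± 0.18 (SE; limma adjusted p = 0.0177), a 2.29-fold lower normalized intensity. The call of Isg20 ended without Blimp1 gfp/gfp replicate 1 (0.0530) or 3 (0.0692) or Blimp1 +/gfp replicate 1 (0.0629), with differences of -0.98 to -1.31 over the alternatives. Ifit2, which binds RNA and translation factors, read 9.68, 9.62 and 9.82 in Blimp1 gfp/gfp, against 10.71, 10.47 and 10.66 in Blimp1 +/gfp. These values were close together within each genotype and apart between them, and Ifit2 fell by 0.91 ± 0.14 (limma adjusted p = 0.0200; 1.88-fold lower). Leaving out any array but Blimp1 +/gfp replicate 3 put the adjusted p of Ifit2 between 0.0586 and 0.0766.

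Ifit3, the gene next to Ifit2 on the chromosome and a partner of the other IFIT proteins, read 5.13, 6.11 and 5.93 in Blimp1 gfp/gfp, against 6.77, 6.59 and 7.35 in Blimp1 +/gfp. It was near background in Blimp1 gfp/gfp, where 2 of 3 arrays detected it, against 3 of 3 in Blimp1 +/gfp. The groups did not overlap, and the difference of -1.18 ± 0.31 (SE) missed the threshold (limma adjusted p = 0.0976). With no background correction Ifit3 differed by -0.48. Eif2ak2, the kinase PKR that halts translation on double-stranded RNA, differed by -0.07 (95% interval -0.41 to 0.26), and Adar, which deaminates adenosines in double-stranded RNA, by 0.17 (-0.22 to 0.56). Both were detected on all 6 arrays and their groups overlapped. A second detected probe of Adar differed by -0.28, so its probes had opposite signs, the 1 case among the 11 members with more than 1 detected probe. Ifit1, which binds RNA with an incomplete cap, was detected on no array and was not tested.

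In the OAS family, whose products make the oligoadenylates that switch on RNase L, Oas1g fell and Oas3 did not pass. Oas1g read 9.99, 9.33 and 9.70 in Blimp1 gfp/gfp, against 11.38, 10.98 and 11.20 in Blimp1 +/gfp. The gap between the genotypes was wider than the spread within either. Its difference of -1.51 ± 0.21 (SE; limma adjusted p = 0.0143) was the lowest of the 29 members and a 2.85-fold lower intensity. The 3 detected probes of Oas1g differed by -1.61 to -1.41, and its other 2 probes were not detected. Oas1g and Oas1a are closely similar neighbouring genes, and Oas1a had no probe under its symbol, so a probe may read both. The call ended without Blimp1 gfp/gfp replicate 3 (0.0532) or Blimp1 +/gfp replicate 1 (0.0647), with differences of -1.66 to -1.34 over the alternatives. Oas3 read 7.09, 5.74 and 6.70 in Blimp1 gfp/gfp, against 6.61, 6.78 and 6.27 in Blimp1 +/gfp, a difference of -0.04 (95% interval -0.87 to 0.79). The 2 genotypes overlapped in full, with a wide spread in Blimp1 gfp/gfp. Oas2 was detected on 0 Blimp1 gfp/gfp arrays and 1 Blimp1 +/gfp array, Oasl1 on 1 array of each genotype and Oasl2 on none, so none of these was tested. Outside the members, Oas1b and Oas1c of the same family were tested, and their groups overlapped. Oas1b differed by -0.32 ± 0.30 (SE; limma adjusted p = 0.640) and Oas1c by -0.01 ± 0.17 (SE; limma adjusted p = 0.983).

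The Mx GTPases and the effectors that act at membranes or on the nucleotide pool gave 6 members tested. Of these, 0 passed the threshold in limma, and 3 were lower at an unadjusted p under 0.05 (50%, against 7.22% of all genes tested). Their median difference was -0.63, and all 6 lay below 0. Samhd1, which hydrolyses the nucleotides that reverse transcription needs, read 11.67, 12.11 and 12.11 in Blimp1 gfp/gfp, against 12.72, 12.69 and 13.05 in Blimp1 +/gfp. Its groups did not overlap, and the difference was -0.85 ± 0.19 (SE; limma adjusted p = 0.0600). Its 3 detected probes differed by -1.24 to -0.60. Bst2, tetherin, which holds budding virus at the cell surface, read 11.64, 11.20 and 11.28 in Blimp1 gfp/gfp, against 12.03, 12.09 and 12.20 in Blimp1 +/gfp. Its groups were apart as well, by -0.73 ± 0.16 (SE; limma adjusted p = 0.0633). Mx1, a dynamin-like GTPase whose gene is disrupted in many inbred mouse strains, read 5.80, 5.28 and 5.24 in Blimp1 gfp/gfp, against 6.90, 6.17 and 6.37 in Blimp1 +/gfp. It was detected on 1 of 3 Blimp1 gfp/gfp arrays and on 3 of 3 Blimp1 +/gfp arrays, with a difference of -1.04 ± 0.25 (SE; limma adjusted p = 0.0751). At this dim level the size depended on the background correction: the difference of Mx1 was -0.55 with normexp alone and -0.40 with no correction. Mx1 passed the threshold with median scaling (0.0480) and with array weights (0.0203). Mx2 read 6.92, 5.92 and 5.76 in Blimp1 gfp/gfp, against 6.71, 6.51 and 6.96 in Blimp1 +/gfp. Blimp1 gfp/gfp replicate 1 lay within the Blimp1 +/gfp values and the other 2 lay below them, with a difference of -0.53 that was -0.20 with no background correction. The neighbouring genes Rsad2, which encodes viperin, and Cmpk2, a mitochondrial nucleotide kinase, differed by -0.28 (95% interval -0.95 to 0.39) and -0.12 (-0.48 to 0.24), with overlapping groups.

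The sensors of foreign nucleic acid lay between -0.67 and -0.50, and none passed the threshold in limma. At an unadjusted p under 0.05 in limma, 3 of 3 were lower, where 7.22% of all genes tested were lower. Ddx58, the RNA sensor RIG-I, read 8.40, 8.72 and 8.91 in Blimp1 gfp/gfp, against 9.32, 8.97 and 9.23 in Blimp1 +/gfp, and its 3 detected probes differed by -0.65 to -0.49. Dhx58, a RIG-I-like helicase that modulates RIG-I and Ifih1, read 9.17, 8.55 and 8.64 in Blimp1 gfp/gfp, against 9.41, 9.12 and 9.40 in Blimp1 +/gfp. Zbp1, which binds nucleic acid in the Z form, read 6.56, 6.07 and 5.66 in Blimp1 gfp/gfp, against 6.93, 6.69 and 6.68 in Blimp1 +/gfp. The groups were apart for Ddx58 and Zbp1 and touched for Dhx58, where Blimp1 gfp/gfp replicate 1 lay above the lowest Blimp1 +/gfp array. The limma adjusted p was 0.209 for Ddx58, 0.238 for Dhx58 and 0.198 for Zbp1. Zbp1 differed by -0.26 with no background correction and passed with array weights (0.0399), under which Ddx58 differed by -0.27. Ifih1, the sensor of long double-stranded RNA, was detected on no array.

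The list of enzymes that attach ADP-ribose or ubiquitin, which also holds Trafd1, had 8 members tested. In limma 0 passed and 4 were lower at an unadjusted p under 0.05 (50%, against 7.22% of all genes tested). The median difference of the 8 was -0.57. Parp14, an ADP-ribosyltransferase, read 11.08, 10.67 and 10.86 in Blimp1 gfp/gfp, against 11.53, 11.59 and 11.68 in Blimp1 +/gfp. All 3 Blimp1 gfp/gfp values were below the Blimp1 +/gfp values. The difference of -0.73 ± 0.16 (SE) lay just outside the threshold (limma adjusted p = 0.0536), and a second, dimmer probe of Parp14 differed by -1.45. When the detected probes of a gene were averaged, Parp14 passed (0.0126). Parp9 and its partner Dtx3l, a ubiquitin ligase, lie beside Parp14 with no protein-coding gene between them. Parp9 differed by -0.40 on its brightest probe and by -1.32 on a second one, with groups apart on both, and by -0.25 on the first with median scaling. Dtx3l read 10.64, 11.86 and 11.83 in Blimp1 gfp/gfp, against 11.75, 12.49 and 12.35 in Blimp1 +/gfp, and replicate 1 was the lowest array of each genotype. Its difference of -0.75 ± 0.37 (SE) had an interval that included 0. Parp12, another ADP-ribosyltransferase, read 8.29, 7.76 and 7.84 in Blimp1 gfp/gfp, against 8.59, 8.67 and 8.88 in Blimp1 +/gfp. These groups did not overlap, and the difference was -0.75 ± 0.19 (SE; limma adjusted p = 0.0839).

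Trafd1, a feedback inhibitor of innate signalling, read 8.14, 7.68 and 7.62 in Blimp1 gfp/gfp, against 8.89, 8.66 and 8.37 in Blimp1 +/gfp. Its groups were apart, by -0.83 ± 0.21 (SE; limma adjusted p = 0.0864), and both its detected probes were lower (-0.83 and -0.58). The TRIM ubiquitin ligases stood closer to 0. Trim30a differed by -0.28 (95% interval -0.62 to 0.06), Trim25, which acts on RIG-I, by -0.01 (-0.41 to 0.38), and Trim21, the cytosolic antibody receptor, by 0.38 (-0.08 to 0.84). Trim21 was the highest of the 29 differences and was dim, detected on 3 of 3 Blimp1 gfp/gfp arrays and on 1 of 3 Blimp1 +/gfp arrays. Its values of 6.01, 5.86 and 6.50 in Blimp1 gfp/gfp lay just above the 5.80, 5.78 and 5.65 in Blimp1 +/gfp. Its difference was 0.14 with no background correction and 0.60 with array weights.

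Among the other interferon-induced proteins, Sp100 was the 1 of 5 that fell. Sp100, a component of PML nuclear bodies, read 10.07, 10.39 and 10.45 in Blimp1 gfp/gfp, against 11.10, 11.13 and 11.03 in Blimp1 +/gfp. The Blimp1 +/gfp arrays had an SD of 0.05, and every Blimp1 gfp/gfp array was lower. The difference was -0.78 ± 0.15 (SE; limma adjusted p = 0.0398), a 1.72-fold lower intensity. This was the least firm of the 4 calls: a second detected probe of Sp100 differed by -0.12, and the call ended with the mean over both probes (0.294), with median scaling (0.111) and without any 1 of the 6 arrays (0.0692 to 0.133). Ifi47, an interferon-induced GTPase, read 11.50, 11.03 and 11.68 in Blimp1 gfp/gfp, against 12.36, 12.06 and 12.13 in Blimp1 +/gfp. Its groups did not overlap, and the difference of -0.78 ± 0.20 (SE) missed the threshold (limma adjusted p = 0.0933). Ifi35 differed by -0.25 (95% interval -0.78 to 0.27), Ifi27 by -0.06 (-0.40 to 0.27) and Lgals3bp, a secreted binding partner of galectin-3, by 0.24 (-0.08 to 0.55). Rtp4 and Xaf1 were detected on no array. Isg15, the ubiquitin-like protein attached to many targets during an interferon response, its protease Usp18, and Ifi44 had no probe under their symbols and were not analysed here.

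The arrays within a genotype also differed in these genes. The mean of the 29 members tested was 9.47, 9.28 and 9.40 (log2) in Blimp1 gfp/gfp replicates 1, 2 and 3, against 9.95, 9.81 and 9.94 in Blimp1 +/gfp replicates 1, 2 and 3. Each Blimp1 gfp/gfp mean lay below each Blimp1 +/gfp mean, and replicate 2 had the lowest mean within either genotype. Blimp1 gfp/gfp replicate 2 was the lowest of all 6 arrays for 13 of the 29 members. Blimp1 gfp/gfp replicate 1 was lowest for 7 and highest for 6 of them, so the members lay in both directions on that array. The median SD among the 3 Blimp1 gfp/gfp arrays was 0.253 for the members and 0.206 for all genes tested, and among the Blimp1 +/gfp arrays it was 0.167 for the members and 0.229 for all genes tested. Lyz2, lysozyme of myeloid cells, read 10.28, 7.35 and 7.16 in Blimp1 gfp/gfp, against 10.29, 10.55 and 10.94 in Blimp1 +/gfp. Blimp1 gfp/gfp replicate 1 was thus level with the Blimp1 +/gfp arrays in Lyz2. Siglech, which marks plasmacytoid dendritic cells, known for their output of interferon, read 6.11, 6.08 and 5.95 in Blimp1 gfp/gfp, against 6.28, 6.35 and 5.75 in Blimp1 +/gfp, and its groups overlapped. Tcf4, of the same list, went the other way. It read 10.79, 10.49 and 9.77 in Blimp1 gfp/gfp, against 8.01, 8.40 and 9.69 in Blimp1 +/gfp. Its groups were apart, and the difference of 1.65 ± 0.47 (SE) did not pass (limma adjusted p = 0.117). Of the 8 myeloid and 9 dendritic cell markers tested, 5 and 7 lay below 0. In limma, 1 of the dendritic list, Irf8, was called lower and 1 of the myeloid list, Cebpa, was called higher. S100a8 and S100a9, granulocyte genes, were detected on no Blimp1 gfp/gfp array and on 2 of 3 Blimp1 +/gfp arrays, and Itgam, Elane, Flt3, Ccr9 and Cd209d were detected on no array. The other marker lists gave 3 of 6 tested B cell and plasma cell markers, 0 of 3 erythroid and megakaryocyte markers and 3 of 5 CD8 and NK cell markers below 0, with 0 called in limma. Of the markers of the labelled cell type, 7 of 8 regulatory T cell markers were below 0, with a median of -0.52 and 1 called lower (Tnfrsf18), and 6 of 9 T cell markers were below 0, with a median of -0.13 and 0 called. The part of cell makeup in the members' difference was not tested.

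**Figure D4:**
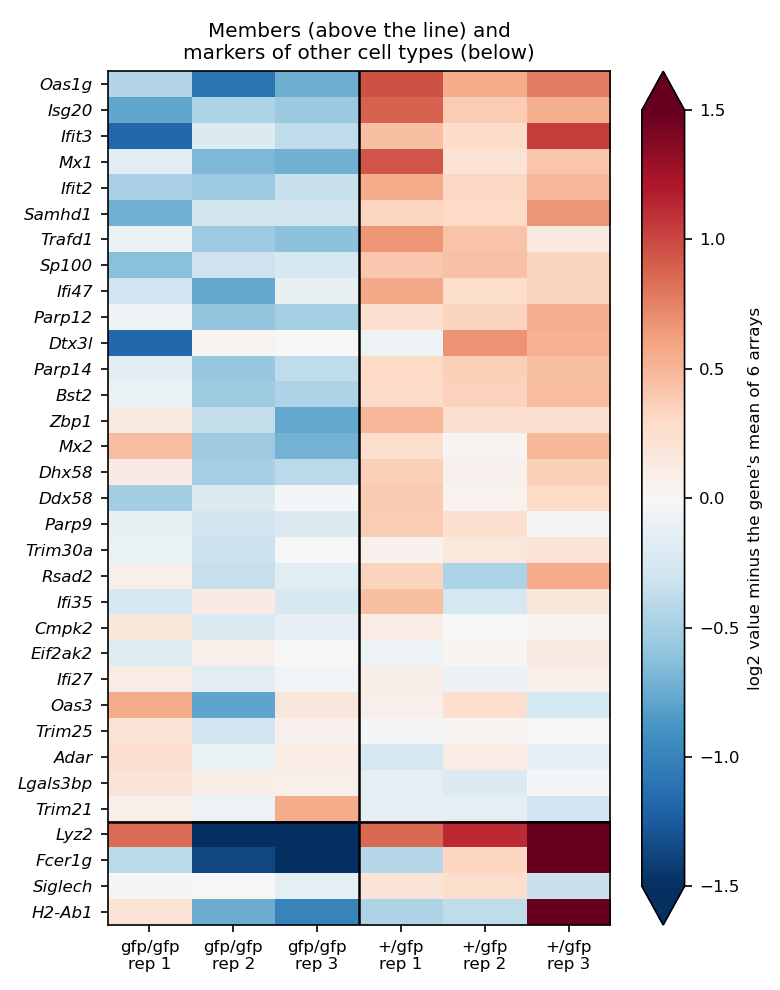
Log2 value minus the gene's own mean over 6 arrays (colour, blue below and red above) for the 29 members tested (rows above the line, lowest difference at the top) and 4 markers of other cell types (below the line), with the Blimp1 gfp/gfp arrays in the left 3 columns and the Blimp1 +/gfp arrays in the right 3. The upper rows are blue on the left and red on the right, while Fcer1g and H2-Ab1 are highest on Blimp1 +/gfp replicate 3. The colour scale ends at 1.5 on either side. The 4 markers drawn were all lower in Blimp1 gfp/gfp on average. Markers that were higher there, such as Cebpa and Tcf4, are not drawn.

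Outside the members, 118 further interferon pathway genes were listed by role, with earlier results of these data known, and 65 were tested. They include 31 tested genes that are themselves induced by interferons, beside 34 that encode receptors, signalling proteins, regulatory factors, sensors and interferons. Of the 65, 8 fell (12.3%, against 1.69% of all genes tested) and 0 rose. At an unadjusted p under 0.05 in limma, 18 were lower (27.7%, against 7.22% of all genes tested). By the same measure 1 was higher, Ptpn11, where 11.3% of all genes tested were higher. The 8 were 4 of the 31 induced genes and 4 of the other 34. The median difference of the 65 was -0.27, and 48 of them lay below 0 (73.8%, against 45.3% of all genes tested). The count of 8 became 5, 5 or 4 when Blimp1 gfp/gfp replicate 1, 2 or 3 was left out, and 2, 2 or 4 when Blimp1 +/gfp replicate 1, 2 or 3 was.

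Among receptors and signalling proteins, 1 of 15 tested fell. Ifngr1, the ligand-binding chain of the interferon gamma receptor, read 10.31, 10.54 and 10.80 in Blimp1 gfp/gfp, against 12.44, 12.18 and 11.77 in Blimp1 +/gfp. The groups were well apart, and Ifngr1 fell by 1.58 ± 0.22 on the log2 scale (SE; limma adjusted p = 0.0143), a call that ended without Blimp1 +/gfp replicate 1 (0.0603) or 2 (0.0705). The receptor for type I interferons gave less: Ifnar1 was detected on no array, and Ifnar2 differed by -0.29 ± 0.17 (SE; limma adjusted p = 0.429). Stat2, which carries the type I signal to the nucleus, read 8.31, 7.91 and 7.97 in Blimp1 gfp/gfp, against 8.68, 8.65 and 8.62 in Blimp1 +/gfp. Its groups did not overlap, yet the difference of -0.59 ± 0.16 (SE) missed the threshold (limma adjusted p = 0.0967). Irf9, its DNA-binding partner, differed by -0.46 ± 0.15 (SE; limma adjusted p = 0.176), also with groups apart. Socs1, a feedback inhibitor of the kinases, differed by -0.39 ± 0.20 (SE; limma adjusted p = 0.363), or by -0.20 with array weights.

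Of the interferon regulatory factors, 2 of 7 tested fell. Irf1, a factor that drives many of these genes in response to interferon gamma, read 11.999, 11.98 and 12.40 in Blimp1 gfp/gfp, against 13.14, 12.94 and 13.11 in Blimp1 +/gfp. The groups were apart, and Irf1 fell by 0.94 ± 0.17 on the log2 scale (SE; limma adjusted p = 0.0313). Irf8, a factor of myeloid and dendritic cells that T cells also express, read 9.19, 7.87 and 8.64 in Blimp1 gfp/gfp, against 10.11, 10.39 and 10.56 in Blimp1 +/gfp. It fell by 1.79 ± 0.33 (SE; limma adjusted p = 0.0348). The call of Irf1 held without Blimp1 gfp/gfp replicate 3 and ended without any other single array (0.0639 to 0.112), with median scaling (0.0518) and with the mean over probes (0.327). That of Irf8 held without Blimp1 gfp/gfp replicate 1 or 2 and ended without any other single array (0.0729 to 0.124) or with no filter on detection (0.0504). Irf7, the factor that amplifies type I interferon production, read 9.39, 8.35 and 8.61 in Blimp1 gfp/gfp, against 9.58, 9.004 and 9.48 in Blimp1 +/gfp. Its groups overlapped and its difference of -0.57 ± 0.30 (SE) did not pass (limma adjusted p = 0.375).

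The interferons themselves were mostly below detection: 15 of 17 with a probe were not detected on enough arrays to be tested. Ifng, which encodes interferon gamma, read 9.28, 8.66 and 10.12 in Blimp1 gfp/gfp, against 12.73, 12.57 and 10.93 in Blimp1 +/gfp. Blimp1 +/gfp replicate 3 was nearer to the Blimp1 gfp/gfp arrays than the other 2. Ifng fell by 2.72 ± 0.56 on the log2 scale (SE; limma adjusted p = 0.0470), a 6.61-fold lower intensity, and the call ended without any 1 array (0.0661 to 0.155) but Blimp1 +/gfp replicate 3, with no filter on detection (0.0724) and with eBayes trend and robust settings (0.0623). Ifnz, the 1 other interferon tested, differed by -0.33 ± 0.16 (SE; limma adjusted p = 0.348). Among the sensing receptors and adaptors, 0 of 10 tested passed in limma. At an unadjusted p under 0.05 in limma, 1 was lower (10%, against 7.22% of all genes tested). The 2 with the smallest p were Tlr7, an endosomal RNA receptor, at -1.33 ± 0.56 (SE; limma adjusted p = 0.267) and the adaptor Traf6 at 0.31 ± 0.14 (SE; limma adjusted p = 0.314).

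The further interferon-stimulated genes gave 4 of 31 tested that fell. Gm4951 read 6.63, 5.80 and 6.57 in Blimp1 gfp/gfp, against 9.29, 9.52 and 9.36 in Blimp1 +/gfp, and fell by 3.05 ± 0.24 on the log2 scale (SE; limma adjusted p = 0.00404). Slfn8, a Schlafen family member, read 9.22, 9.03 and 9.16 in Blimp1 gfp/gfp, against 10.39, 10.29 and 10.45 in Blimp1 +/gfp, and fell by 1.24 ± 0.13 (SE; limma adjusted p = 0.00744). Both had values far apart between the genotypes and close within them, and both calls held without each single array in turn. The size of the Gm4951 difference was -1.89 with no background correction. Uba7, the enzyme that activates Isg15 for attachment, read 11.69, 11.64 and 11.64 in Blimp1 gfp/gfp, against 12.37, 12.25 and 12.43 in Blimp1 +/gfp. It fell by 0.69 ± 0.13 (SE; limma adjusted p = 0.0348), and the groups did not overlap. Ms4a4b, a membrane protein of T cells, read 6.99, 7.21 and 7.44 in Blimp1 gfp/gfp, against 7.93, 8.44 and 8.25 in Blimp1 +/gfp. It fell by 0.99 ± 0.19 (SE; limma adjusted p = 0.0397). The calls of Uba7 and Ms4a4b ended without any 1 of the 6 arrays (0.0777 to 0.140 for Uba7 and 0.0667 to 0.130 for Ms4a4b) and with median scaling (0.0927 and 0.0898). That of Ms4a4b also ended with cyclic loess (0.0504), with no filter on detection (0.0528) and with the mean over probes (0.0682), and Ms4a4b differed by -0.60 with no background correction.

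**Figure D5:**
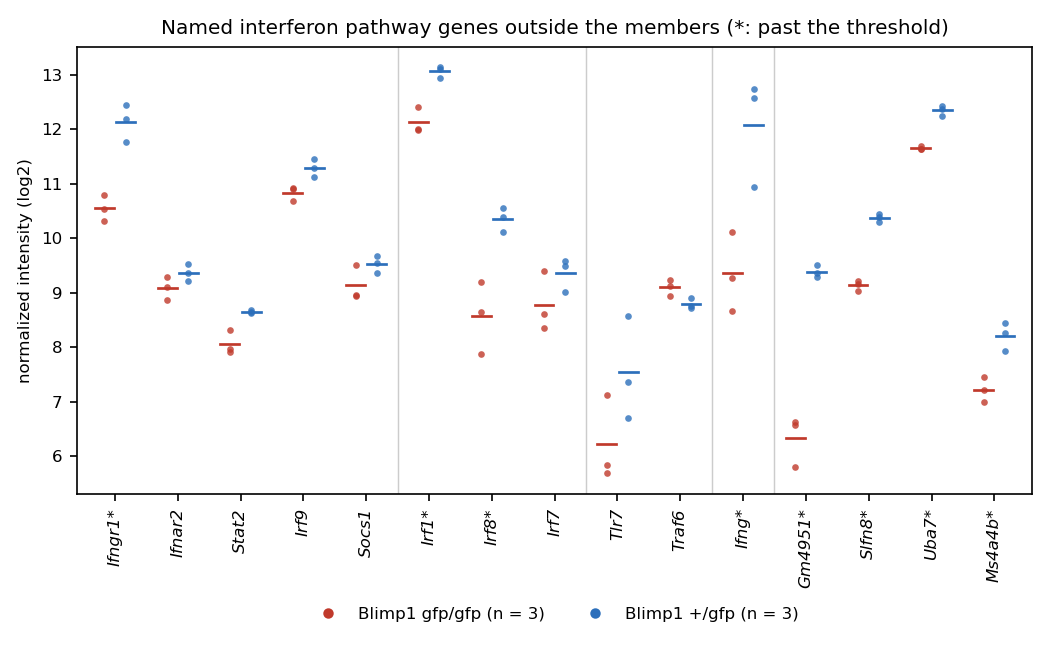
Normalized log2 intensity (y axis) of interferon pathway genes named in the text that are not among the 40 members (x axis). They are grouped as receptors and signalling, interferon regulatory factors, sensing, interferons and further induced genes. Points are arrays, red for Blimp1 gfp/gfp on the left and blue for Blimp1 +/gfp on the right of each pair. A bar marks each mean of 3. The 8 genes with an asterisk passed the threshold, all lower in Blimp1 gfp/gfp. Ifnar1, Ifnz, Oas1b, Oas1c and Ptpn11 are named in the text and are not drawn. Of these, Ptpn11 was higher in Blimp1 gfp/gfp, by 0.62.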

How the data were processed

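Each of 6 samples was hybridised to 1 Illumina array. The authors deposited a mean bead intensity and a detection p-value for each probe, per the file headers, and a table of log2 values of the same arrays, which differed from limma's neqc of the intensities by at most 0.0975. The submitters' processing notes name BeadStudio and limma, with no version or setting. The intensities were processed with neqc (offset of 16, quantile normalization) in limma 3.58.1 under R 4.3.3. Genes were named from the platform annotation (65 of 65 member probes matched RefSeq by Entrez ID). Each gene was represented by the probe with the highest mean of the deposited log2 values and tested if its detection p was under 0.05 on at least 3 of 6 arrays. The difference, Blimp1 gfp/gfp minus Blimp1 +/gfp, was tested by lmFit and eBayes, and p-values were adjusted by Benjamini-Hochberg over 8739 genes, with a threshold of 0.05. The fit was tested on simulated data. The number of arrays limits the precision.

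The members and lists were chosen with earlier results of these data known, and so was the rule for named genes. By that rule each member is named once, with its value on each array if called, or if among the 12 smallest p-values. From each pathway list up to 4 called genes are named, or the 2 with the smallest p, and 12 genes were to be given whatever their p, of which 1 is not reported here. Array values of further members (Mx2, Oas3, Dtx3l, Trim21 and the sensors), Ptpn11, Oas1b, Oas1c and the single markers were added after they were seen. Alternatives changed the background correction, normalization, filter, probe choice, variance model, array weights, replicate block, source of values, threshold and arrays.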

Additional observations from a re-analysis of the deposited data

How the results depend on the processing

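The members' direction held over the alternatives. Their median log2 difference stayed between -0.67 and -0.39, no called member changed sign, and 22 to 27 of the 29 members tested lay below 0 (32 of 36 with no filter on detection, and 23 of 25 detected on all 6 arrays). The number of members changed (limma, adjusted p under 0.05), 4 as reported, was 7 with normexp on the intensities alone, 7 with no background correction, 7 with the mean over detected probes, 8 with eBayes trend and robust settings, 11 with array weights and 12 at an adjusted p under 0.1. It was 0 to 3 when 1 array was left out. The changed genes between genotypes, 360 as reported, became 826 with array weights and 668 at an adjusted p under 0.1, and 87 to 366 without 1 array. The pathway genes changed, 8 as reported, were 5 with median scaling, 5 with no filter on detection and 2 to 5 without 1 array. Calls were split differently between directions with median scaling (70.0% of called genes higher, against 58.9% as reported), without Blimp1 gfp/gfp replicate 3 (69.2%) and without Blimp1 +/gfp replicate 1 (71.3%). The cause was not tested, except that fewer arrays were fitted when 1 was left out. The fits without an array kept the genes and probes of the fit on 6 arrays.

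Replicate numbers are shared between the genotypes in the labels and are also the BeadChip section. Same-numbered arrays correlated in their deviations from the group means at 0.188, -0.0759 and 0.00102. Arrays of different number correlated at -0.148 to 0.165. With 3 arrays a genotype, these correlations can neither show nor exclude a pairing. With the replicate block, the changed genes between genotypes numbered 171, with 2 members (Oas1g and Mx1) and 2 pathway genes among them. Depth is unknown for array intensities, and the differences of 5 dim members (Ifit3, Mx1, Mx2, Zbp1 and Trim21) shrank by over 1.5 times with no background correction. With 3 arrays a genotype, a member that missed the threshold is not shown to be unchanged.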
